A study of Sus scrofa with 20 samples.

Results

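The insulin-like growth factor (IGF) axis of the pig ileum was described here through 15 probesets of 8 genes. They are the rows with values among the 52 platform probesets whose gene symbol is IGF1, IGF2, IGF1R, INSR, IRS1, IRS2, IGFBP2, IGFBP3, IGFBP4 or IGFBP5, in a series of 25092 probesets with values. The 14 probesets of IGF2 and the 8 of IGFBP5 held no values, so these genes are named only. The other 8 genes were IGF1 with 5 filled probesets, INSR with 3, IGFBP2 with 2, and IGF1R, IRS1, IRS2, IGFBP3 and IGFBP4 with 1 each.

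The study asked how the gut of pigs that use feed well differs from that of pigs that use it poorly. It ranked Large White x Landrace pigs by residual feed intake (RFI), the feed eaten beyond that predicted from growth and maintenance, and selected from both ends of that ranking inside each litter, balanced for sex. The low RFI group, labelled as high in feed efficiency, held 10 pigs, 5 males and 5 females, and the high RFI group, labelled as low in feed efficiency, held 10 pigs of the same makeup. The pigs were slaughtered in the fifth month of life, and 1 snowball array per pig measured RNA of the ileal mucosa. All came from 5 sows, with 4 pigs per sow: a male and a female of low RFI and a male and a female of high RFI, hence 10 pairs matched for litter and sex. A litter shared dam and pen, so these cannot be told apart. The groups come from ranking of one cross and not from a treatment, so they describe pigs at both ends of that ranking.

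IGF1 and IGF2 are secreted growth factors that bind the receptor IGF1R, a tyrosine kinase closely related to the insulin receptor INSR. Both receptors pass the signal on through the adaptor proteins IRS1 and IRS2 to the PI3 kinase route. The IGF binding proteins hold the ligands outside the cell and thereby limit or prolong their action, and in the gut much of the IGF1 is made by mesenchymal cells beneath the epithelium, which responds to it by growth.

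All levels below are deposited log2 values, on which scale a difference of 1 is a doubling. Array medians lay between 4.98 and 5.07, and any pair of arrays correlated at 0.948 to 0.974. The tissue label was checked on fixed markers. The ileal bile acid genes FABP6 and SLC10A2 averaged 13.2 and 11.9, and the mean of 6 enterocyte genes lay at 10.4 to 11.5 in low RFI pigs and 10.7 to 11.4 in high RFI pigs. Markers of fibroblasts and matrix were present as well (11 of 12 with values), with a mean of 5.74 to 7.52 in low RFI pigs and 5.52 to 7.69 in high RFI pigs. Smooth muscle markers (7 of 9 with values) averaged 4.99 to 6.02 in low RFI pigs and 5.10 to 6.15 in high RFI pigs. In bulk tissue, fewer cells of a type and less RNA per cell cannot be told apart. The p-values measure the spread between these 20 pigs.

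Of the 15 probesets, 12 passed the filter of the study on low mean and high SD and were tested in limma with the sow as a term. IGFBP4 was higher and IRS1 lower in low RFI than in high RFI pigs at an unadjusted p under 0.05, the threshold of the study, and the other 10 tested probesets did not pass it. Over all 22136 probesets tested, 4.03% passed that threshold, 1.44% as higher and 2.59% as lower in low RFI pigs, and a single call in either direction among 12 probesets is not read as a result about the axis. After Benjamini-Hochberg adjustment over all of them none passed (0.00%), and each tested member had a limma adjusted p of 0.9998. The median log2 fold change of the 12 was -0.10, with 9 negative and 3 positive, beside -0.01 over all probesets tested. Log2 fold changes are given for low over high RFI, ± SE. The INSR probesets and those of IGF1 or IGFBP2 share a gene and are not separate measurements of the axis.

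**Figure D1:**
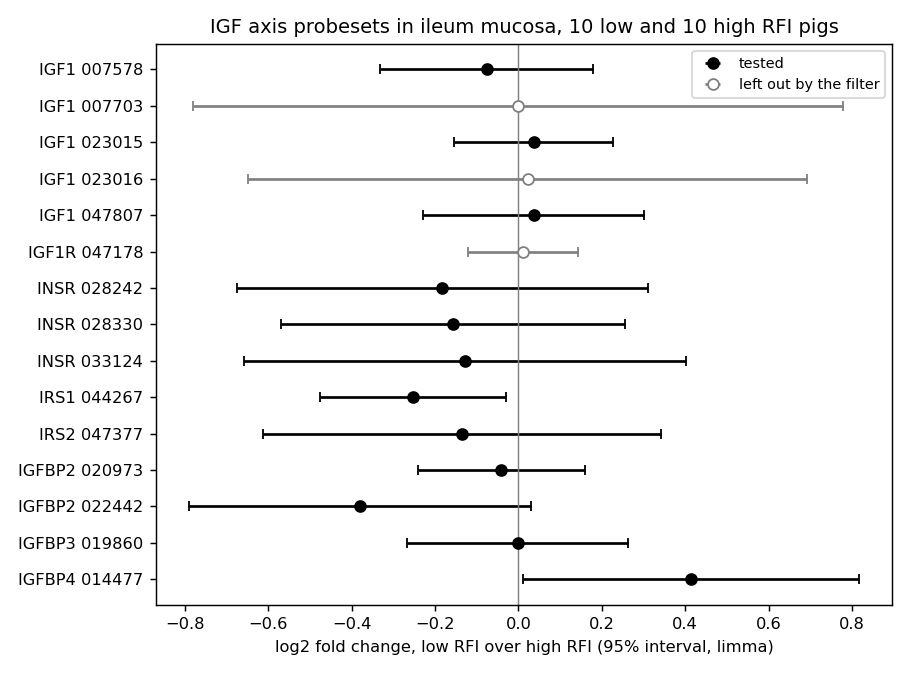
Log2 fold change of low RFI over high RFI pigs (x axis) for the 15 filled probesets, with the 95% interval from limma, 10 pigs per group. Filled points were tested and open points were left out by the filter. The intervals of IRS1 (-0.48 to -0.03) and IGFBP4 (0.01 to 0.82) lie to either side of 0, and the other 13 include it.

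Of the ligand IGF1 (chromosome 5, 81762027 to 81909253 in the RefSeq annotation of Sscrofa11.1), no probeset passed the threshold between the RFI groups. Probeset 007578 had 3.32, 3.61 and 4.13 (lowest, median, highest) in low RFI pigs, against 3.36, 3.67 and 4.49 in high RFI pigs, with a log2 fold change of -0.08 ± 0.12. Probeset 023015 had 4.59, 4.83 and 5.31 in low RFI pigs, against 4.47, 4.75 and 5.35 in high RFI pigs (0.04 ± 0.09). The groups overlapped almost wholly on both, and in the third tested probeset, 047807, the means were 2.35 ± 0.285 in low RFI and 2.32 ± 0.317 in high RFI pigs (SD, n = 10 each), a level near the floor of the array. The remaining pair, 007703 and 023016, were left out of the test because their SD exceeded the filter limit of 0.825 in low RFI pigs, and for 007703 also that of 0.808 in high RFI pigs. On 007703 low RFI pigs spanned 2.87 to 5.96 with a mean of 4.62 ± 0.993, and high RFI pigs 2.60 to 6.99 with a mean of 4.62 ± 1.38. This probeset had the largest SD of the 15, and its spread lay within both RFI groups: without the filter its log2 fold change was -0.00 ± 0.37.

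Of the receptors, IGF1R (chromosome 1, 137383623 to 137691038) was near the floor of the array on its single filled probeset, with means of 1.40 ± 0.132 in low RFI and 1.39 ± 0.134 in high RFI pigs, under the mean limit of 1.75, so it was not tested. INSR (chromosome 2, 71797209 to 71939923) was measured by 3 probesets, all of which were lower in 7 of 10 pairs without passing the threshold. On probeset 028242 low RFI pigs had 5.22, 6.21 and 6.87, against 5.25, 6.46 and 7.19 in high RFI pigs, a log2 fold change of -0.18 ± 0.24 (95% interval -0.68 to 0.31, limma unadjusted p = 0.447). The other two gave -0.16 ± 0.20 and -0.13 ± 0.25. Single pairs differed by far more than the groups did: the difference of low minus high RFI pig on 028242 ran between -1.26 and 1.63.

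The adaptor IRS1 (chromosome 15, 128245846 to 128307321) carries the signal of both receptors. Probeset 044267 had 1.48, 1.94 and 2.35 in low RFI pigs, against 1.76, 2.11 and 2.49 in high RFI pigs. Of the low RFI pigs, 3 lay below the lowest high RFI pig and the rest overlapped. The means were 1.91 ± 0.271 and 2.16 ± 0.201 (low and high RFI, SD, n = 10 each), and the log2 fold change was -0.25 ± 0.11, or 0.839-fold, with a limma unadjusted p of 0.0286 and an adjusted p of 0.9998. IRS1 was the most regular of the members across pairs: it was lower in 9 of 10 pairs and in all 5 litters, where the difference lay between -0.32 and -0.19. An exact two-sided sign-flip test within the 10 pairs, which does not use the sow term, gave p = 0.00391. The smallest p it allows is 0.00195. It was run on the members alone and on the same pigs, so no adjusted p or share of all probesets stands beside it. However, the mean of IRS1, 2.03 over all pigs, is close to the filter limit of 1.75, a level at which an array reads little signal. The call was lost under renewed quantile normalization (-0.22, unadjusted p = 0.0736), with array weights (-0.21, unadjusted p = 0.0648), and without the litters of sow 1406, 1417 or 1435 (unadjusted p of 0.0632, 0.0503 and 0.0698).

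The second adaptor, IRS2 (chromosome 11, 76626158 to 76654639), had 7.68, 8.12 and 8.73 in low RFI pigs, against 7.18, 8.16 and 9.46 in high RFI pigs on probeset 047377. The high RFI pigs lay to both sides of the low RFI pigs, with 8.14 ± 0.331 in low RFI and 8.28 ± 0.717 in high RFI pigs, and the log2 fold change was -0.14 ± 0.23 (95% interval -0.61 to 0.34). It was higher in 5 pairs and lower in 5.

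Among the binding proteins, IGFBP4 (chromosome 12, 21966524 to 21980043), which mainly restrains IGF1 and is cut by the protease PAPPA, had 5.82, 6.73 and 7.33 in low RFI pigs, against 5.52, 6.21 and 6.86 in high RFI pigs on probeset 014477. Of the low RFI pigs, 4 lay above the highest high RFI pig. The means were 6.65 ± 0.464 in low RFI and 6.23 ± 0.449 in high RFI pigs (SD, n = 10 each), a log2 fold change of 0.41 ± 0.19 or 1.33-fold (limma unadjusted p = 0.0450, adjusted p = 0.9998). The difference was not shared by all litters. It was 0.76, 0.85, 0.90 and 0.18 in the litters of sow 1406, 1411, 1417 and 1435, and -0.63 in that of sow 1410, in which both pairs ran the other way. It was higher in 7 of 10 pairs (exact sign-flip p = 0.104), and with the pair as block the limma unadjusted p was 0.0553. Without the filter, where 3.99% of 25092 probesets passed, it was 0.0516. Leaving out the litters of sow 1406, 1411 or 1417 also lost the call (unadjusted p of 0.167, 0.178 and 0.182), whereas without sow 1410 the log2 fold change was 0.67 (unadjusted p = 0.00155). Once the fibroblast and matrix score was added to the fit the difference was 0.42 (unadjusted p = 0.0468), and with the smooth muscle score 0.45 (unadjusted p = 0.0325).

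**Figure D2:**
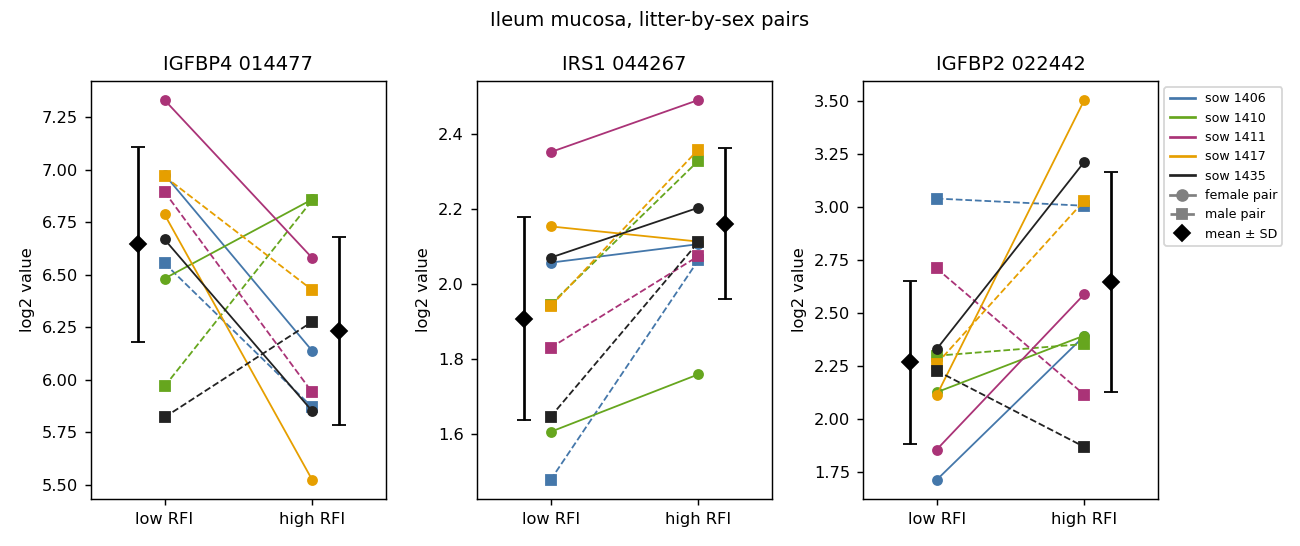
Log2 values of IGFBP4, IRS1 and IGFBP2 (probeset 022442) in low RFI pigs (left) and high RFI pigs (right), with a line for each of the 10 litter-by-sex pairs, coloured by sow and dashed for males. Black diamonds give the mean ± SD of 10 pigs. IRS1 was lower in low RFI pigs in 9 of 10 pairs, IGFBP4 was higher in 7, and IGFBP2 was lower in all 5 female pairs.

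IGFBP2 (chromosome 15, 118822092 to 118850985), another carrier of the IGFs, was read by a pair of probesets that did not follow each other (r = 0.135 over 20 pigs). Probeset 020973 had 6.32, 6.66 and 6.94 in low RFI pigs, against 6.38, 6.65 and 6.97 in high RFI pigs, and differed by -0.04 ± 0.10. Probeset 022442 had 1.71, 2.25 and 3.04 in low RFI pigs, against 1.87, 2.49 and 3.51 in high RFI pigs. The low RFI mean was below the high RFI mean in all 5 litters, by -1.08 in the litter of sow 1417 and by -0.32 to -0.07 in the other 4. The log2 fold change was -0.38 ± 0.20, which did not pass the threshold (95% interval -0.79 to 0.03, limma unadjusted p = 0.0679, exact sign-flip p = 0.0859). With the pair as block it did (unadjusted p = 0.0461), beside 4.31% of all probesets in that fit, and without the litter of sow 1417 the log2 fold change was -0.20 (unadjusted p = 0.352). Which transcripts of IGFBP2 the probesets read is not given in the sources used here.

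IGFBP3 (chromosome 18, 50002921 to 50009425), the main carrier of IGF1 in blood, had 5.94, 6.57 and 7.19 in low RFI pigs, against 6.01, 6.42 and 7.19 in high RFI pigs on probeset 019860. Both groups averaged 6.47, with a log2 fold change of -0.00 ± 0.13 and a 95% interval of -0.27 to 0.26.

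Litters were compared next, as another source of difference given in the labels. The slaughter batch is not in the labels, so any overlap of batch with litter is not known. IGFBP3 and 1 of the 5 IGF1 probesets had the lowest litter p of the members, and neither passed after adjustment. The mean of IGFBP3 was 6.95 in the litter of sow 1406, and 6.38, 6.61, 6.30 and 6.14 in those of sow 1410, 1411, 1417 and 1435. Litter accounted for 56.6% of its variance, and the F test of the 5 sows in limma gave an unadjusted p of 0.00728 and an adjusted p of 0.226. The litter share was also 56.3% for IGF1R (limma unadjusted p = 0.105 without the filter) and 46.8% for IGF1 probeset 023015. Its median over the tested members was 18.9%. IGFBP3 was the only one of the 12 tested members with an unadjusted litter p under 0.05, beside 12.9% of all probesets tested, and no member passed after adjustment, beside 0.0949%. The strongly varying IGF1 probeset 007703 had litter means of 5.65, 4.94, 5.24, 3.33 and 3.94 in the same order, 56.1% of its variance (unadjusted p = 0.00555 without the filter, adjusted p = 0.211). The litter of sow 1406 was the highest for both. On the other 4 IGF1 probesets the unadjusted litter p was 0.0678 (023015), 0.103 (023016, without the filter), 0.177 (007578) and 0.279 (047807).

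The fibroblast and matrix score ran over the litters in much the same way, at 7.39, 6.69, 6.58, 5.99 and 5.94, with 72.8% of its variance between litters. Marker scores of other cell types were also highest in the litter of sow 1406. These were crypt cells (5.41), macrophages (5.92), endothelium (6.37), smooth muscle (5.75) and follicle B cells (7.22). Those of enterocytes, goblet cells, enteroendocrine cells, T cells and enteric neurons and glia were not. Only the fibroblast and matrix score and the smooth muscle score were used as covariates. With the fibroblast and matrix score the limma unadjusted litter p was 0.165 for IGFBP3 and 0.107 for IGF1 probeset 007703. With the smooth muscle score it was 0.107 and 0.0644. Litter calls fell over the whole array too. Of all 22136 probesets, 2848 had an unadjusted litter p under 0.05 in limma without a score. With the fibroblast and matrix score 1411 did, and with the smooth muscle score 1556. IRS2, at 0.408 without a covariate, reached an unadjusted litter p of 0.0470 with the fibroblast and matrix score. By RFI group the score averaged 6.51 in low RFI and 6.53 in high RFI pigs.

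**Figure D3:**
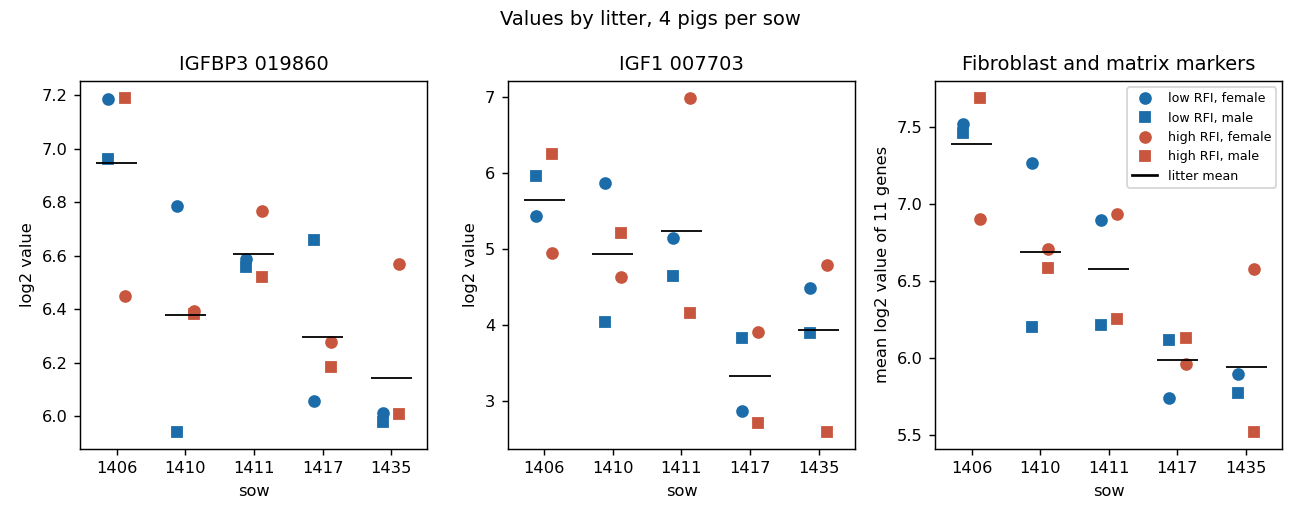
Log2 values of IGFBP3 and of IGF1 probeset 007703, and the mean of 11 fibroblast and matrix markers, in the 4 pigs of each sow (x axis), low RFI in blue left of high RFI in red, circles for females and squares for males, with a bar at the litter mean. The litter of sow 1406 has the highest mean in all 3 panels, 6.95, 5.65 and 7.39.

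Sex alone separated none of the 12 tested members (0 at unadjusted p under 0.05 in limma, beside 7.43% of all probesets). The RFI difference itself was compared between males and females, and 1 of 12 passed an unadjusted p under 0.05, beside 6.06% of all probesets. This was IGFBP2 probeset 022442, with a log2 fold change of 0.03 in males and -0.79 in females, higher in 3 of 5 male pairs and lower in 5 of 5 female pairs. The difference of 0.82 ± 0.36 had a limma unadjusted p of 0.0354 and an adjusted p of 0.787. With the pair as block its unadjusted p was 0.00991, and IGF1 probeset 007578 (unadjusted p = 0.00961) and IRS1 (0.0327) passed as well, each with an adjusted p above 0.05. That makes 3 of 12, beside 6.12% of all probesets in the blocked fit. On that IGF1 probeset the log2 fold change was -0.30 in males, with 5 of 5 pairs lower, and 0.15 in females, with 4 of 5 pairs higher. The IGF1 probesets did not all share this direction. It was shared by 023016, with -0.56 in males and 0.60 in females, and by 047807, with -0.01 and 0.09. Probeset 023016 was left out by the filter. Without the filter and with the pair as block, its limma unadjusted p for RFI by sex was 0.00117. The other direction was seen on 007703, with 0.29 in males and -0.29 in females, and on 023015, with 0.09 and -0.02. The log2 fold change of IRS1 was -0.42 in males and -0.09 in females. That of IGFBP4 was 0.17 in males and 0.66 in females, a gap of -0.49 ± 0.38 (males minus females) that did not pass the threshold (limma unadjusted p = 0.215).

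The members were then set against each other over the 20 pigs, 105 relations in all, with permutation tests and Benjamini-Hochberg adjustment over them. Of these, 19 passed an adjusted p under 0.05 on Pearson's r, 13 positive and 6 negative. Several of the positive ones join probesets of the same gene, INSR or IGF1. On Spearman's rho few passed. They were the relations among the INSR probesets (adjusted p = 0.00035) and those of IGF1 probeset 007703 with 047807 (0.0426) and with IGFBP3 (0.00262). Pigs of a litter are not fully independent, so the correlation within litters is given beside the pooled one. The 3 INSR probesets followed each other closely, with r between 0.913 and 0.917 over all pigs and 0.914 to 0.933 within litters. Spearman's rho was 0.925 to 0.956 (permutation adjusted p = 0.00035, whose raw p of 1e-05 is the smallest the permutations give). These probesets ranked the pigs alike.

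IRS2 correlated with INSR, past the threshold on 2 of the 3 probesets. With probeset 028242 the correlation was 0.655 (permutation p = 0.00174, adjusted p = 0.0261), and Spearman's rho was 0.614 (adjusted p = 0.0619). Within litters r was 0.662. Without the 2 pigs farthest from the median on the INSR probeset r was 0.703, and IRS2 values were not used to choose those pigs. With 028330 the correlation was 0.575 (permutation adjusted p = 0.0492), and 0.638 within litters. With 033124 it was 0.562 (permutation adjusted p = 0.0505), and 0.598 within litters. Over the 3 probesets the correlation lay between 0.128 and 0.295 in low RFI pigs and between 0.723 and 0.799 in high RFI pigs, and this gap was not tested. IRS1 correlated with INSR at 0.287 to 0.363 over all pigs and at 0.417 to 0.453 within litters, and none of these relations passed (adjusted p of 0.354 to 0.473). Its correlation with INSR was 0.601 to 0.707 in low RFI pigs and -0.138 to -0.0549 in high RFI pigs, a gap that was not tested either. The IGFBP2 probeset 022442 ran against INSR probeset 033124 at r = -0.71 (permutation p = 0.00062, adjusted p = 0.013) and -0.719 within litters, although Spearman's rho was only -0.472 (adjusted p = 0.198). It also ran against INSR probesets 028242 (-0.634) and 028330 (-0.576) and against IRS2 (-0.572). IGF1 probeset 023015 ran against INSR probesets 033124 (-0.609) and 028330 (-0.574). The permutation adjusted p of these was 0.0279 to 0.0492, and r within litters was -0.633 to -0.538. None passed on Spearman's rho (adjusted p of 0.107 to 0.326).

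**Figure D4:**
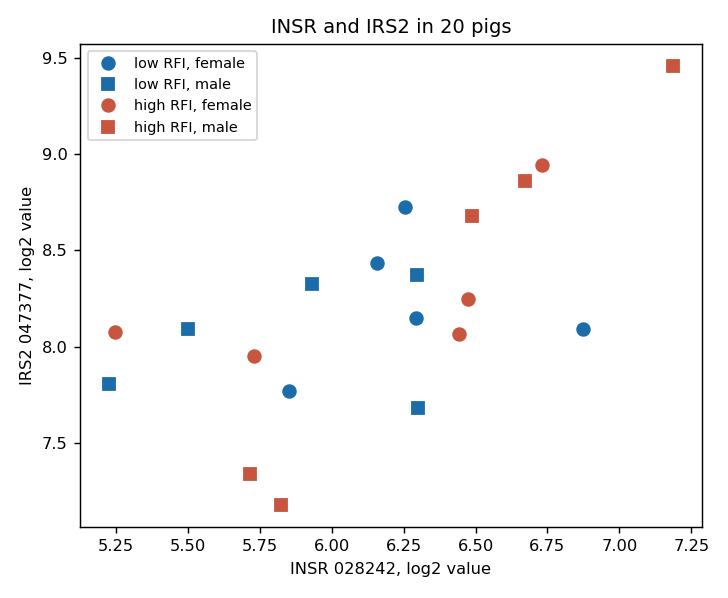
Log2 value of IRS2 (y axis) against that of INSR probeset 028242 (x axis) in 20 pigs, low RFI in blue and high RFI in red, circles for females and squares for males. The correlation over all pigs was 0.655, and high RFI pigs span the wider range of IRS2, 7.18 to 9.46.

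The ligand and its carrier correlated too, most closely on the IGF1 probeset 007703 that the filter left out for its SD. IGF1 probeset 007703 and IGFBP3 correlated at 0.755 (permutation p = 0.0001, adjusted p = 0.00262, Spearman 0.765) and at 0.66 within litters. Without the pigs farthest from the median on that IGF1 probeset the correlation was 0.754. It held in both groups, with 0.747 in low RFI and 0.842 in high RFI pigs. The fibroblast and matrix score and some other marker scores run with both over the litters, and their part in this correlation was not tested. On IGF1 probesets 007578, 023015, 047807 and 023016 the correlation with IGFBP3 was 0.643, 0.623, 0.621 and 0.36. The permutation adjusted p was 0.0279, 0.0279, 0.0337 and 0.362, and that of Spearman's rho 0.0628, 0.13, 0.0521 and 0.675. Within litters r was 0.576, 0.32, 0.628 and 0.123, so that of 023015 lay well below its pooled value. Without the pigs farthest from the median on the IGF1 probeset, r was 0.423, 0.374, 0.542 and -0.0559. Among the IGF1 probesets, 023015 and 023016 correlated at 0.644 (permutation adjusted p = 0.0279) and at 0.478 within litters. Without the pigs farthest from the median on 023015 r was 0.148, so this relation rests on those pigs.

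**Figure D5:**
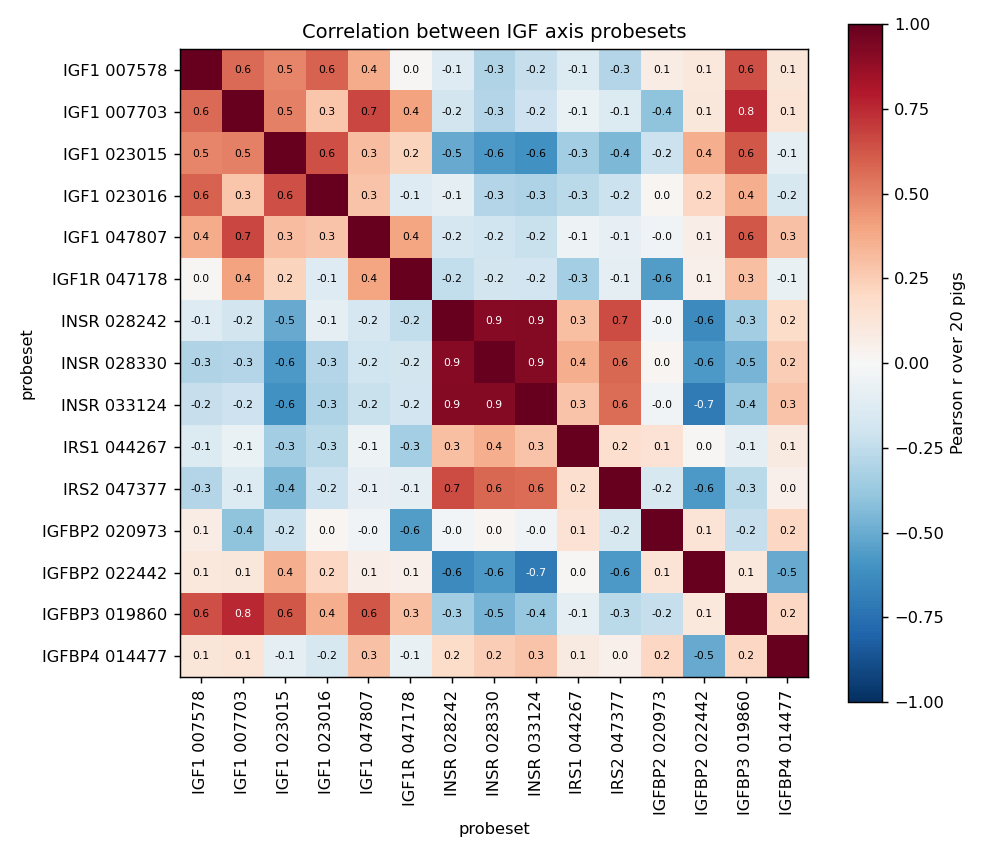
Pearson correlation between the 15 filled probesets over 20 pigs, red for positive and blue for negative, with r in each cell. The 3 INSR probesets and IRS2 correlated positively with each other (0.562 to 0.917), as did the IGF1 probesets and IGFBP3 (0.276 to 0.755). IRS1 had lower positive values with INSR (0.287 to 0.363).

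The genes around the axis were taken from a list of 55, of which 39 had values and 35 were tested with 1 probeset per gene. None passed the threshold in either direction (0 higher and 0 lower at a limma unadjusted p under 0.05), beside 3.84% of all 9758 genes tested (1.24% higher and 2.60% lower), and their median log2 fold change was -0.03 beside -0.01. The scavenger receptor IGF2R, which removes IGF2, averaged 7.64 in low RFI and 7.57 in high RFI pigs. PAPPA, the protease that cuts IGFBP4, averaged 4.82 in low RFI and 4.77 in high RFI pigs (0.05 ± 0.15), and its inhibitors STC1 and STC2 differed by -0.15 ± 0.11 and -0.02 ± 0.10. IGFBP6, a binding protein that prefers IGF2, differed by -0.04 ± 0.08, and IGFBP7 had values but was left out by the filter. Nearest to the threshold was SOCS2, an inhibitor of growth hormone signalling, with 4.996 ± 0.504 in low RFI and 5.34 ± 0.368 in high RFI pigs (-0.34 ± 0.17, unadjusted p = 0.0619). With the pair as block SOCS2 passed (unadjusted p = 0.0267, adjusted p = 0.9995).

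The genes whose values ran most like those of IRS1 and IGFBP4 over the 20 arrays were named as a description. For IRS1 they were GSG1 (r = 0.735), PCOLCE2 (0.704) and WBP11 (0.676), and AVEN ran most against it (-0.751). For IGFBP4 they were WASF3 (0.715), DUS4L (0.707) and HIP1R (0.684). Within litters, 1 of these 6 remained among the 3 most alike, so the ranks are not firm.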

How the data were processed

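RNA of ileal mucosa from 20 pigs was measured on 1 array each. The authors remapped the probes to Sscrofa11.1 and used the robust multichip average for summary, which leaves deposited log2 values, and the submitters' processing notes name GCOS 1.1.1. Arrays carry no count or depth, and their number limits the precision. The labels give feed efficiency, sex and sow. High feed efficiency was read as low RFI after the study's methods. The labels do not give the slaughter batch, a term of the study's model, and it was left out. Symbols came from the platform annotation, updated through RefSeq synonyms (331 changed), and positions from RefSeq.

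Probesets were kept with a mean at or above the 5% quantile (1.75) and an SD within the 95% quantile in each RFI group. This removed 2956 of 25092 and left 22136. They were fitted in limma 3.58.1 (R 4.3.3) by lmFit and eBayes with RFI group and sow (degrees of freedom: 14 residual, 4.42 prior). The litter F test came from this fit. Sex was added as a term for the test of sex, and sex and its product with RFI group for RFI by sex. The fits were checked on simulated data. Correlations used 100000 permutations in numpy 2.4.6, with ranks from scipy 1.17.1.

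All filled probesets of the 10 genes are named. Of the pathway list, genes at unadjusted p under 0.05 and IGF2R, IGFBP6, IGFBP7, PAPPA, STC1 and STC2 are named; SOCS2 and PIK3CD were named after their values were seen. The members and lists were chosen with earlier results of these data known. Pairs come from litter and sex in the labels. Deviations of the pigs of a pair from their group means correlated at a median of 0.0836, over 0.1 in 4 of 10 pairs. Alternatives were other sow, sex and block terms, filters, eBayes settings, array weights, scalings, marker scores as covariates, gene means, and leaving out each litter or pig.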

Additional observations from a re-analysis of the deposited data

Results flagged for a closer look

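On 3 IGF1 probesets, 1 high RFI male of sow 1406 lay far above the other 9 high RFI pigs. It had 4.49 on probeset 007578 with the next pig at 3.88, 5.35 on 023015 with the next at 4.89, and 5.01 on 023016 with the next at 3.52. The gaps were 0.54, 0.525 and 0.529 of the range of the group, over Dixon's limit for 10 samples, which chance passes in about 1 of 20 groups. Many groups were screened, so some would pass that limit by chance. The 3 probesets read the same gene in the same pig and are not separate results. The share of all probesets over the limit is not given. This pig also had the highest marker score of the 20 pigs for fibroblasts and matrix (7.69), smooth muscle (6.15), endothelium (6.73) and macrophages (6.41). The part of these cells in its IGF1 values was not tested. The low RFI male of the same sow was the highest of the low RFI pigs on these probesets, at 4.13, 5.31 and 4.53.

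The RFI difference of IGFBP2 probeset 022442 differed between males and females by 0.82 on the log2 scale, at an unadjusted p of 0.0354 and an adjusted p of 0.787 in limma.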

How the results depend on the processing

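IRS1, IGFBP4 and IGFBP2 probeset 022442 kept their sign under every alternative and with any litter or pig left out; members with differences near 0, such as IGFBP3, took either sign without passing the threshold. Over 180 values of the 12 tested members under alternatives, 8 changed their side of the threshold, all of IRS1, IGFBP4 or IGFBP2 probeset 022442; the other 9 kept theirs, also without any litter or pig. The count of members past an unadjusted p under 0.05 was 2 in the chosen setting. It was 1 without the filter and with the filter on the mean alone (IGFBP4 lost, limma unadjusted p = 0.0516 and 0.0518). It was 1 under renewed quantile normalization and 1 of 8 when the filled probesets of each gene were averaged. The count was also 1 with the exact sign-flip test, which was run on the members alone. With the litter-by-sex pair as replicate block it was 2, but of IRS1 and IGFBP2 (0 higher, 2 lower), and with array weights IGFBP4 and IGFBP2 passed. The block changed no other RFI call of a member. Leaving out a litter or pig gave 0 to 3. It was 0 without the litter of sow 1406 or 1417 or without high RFI replicate 5. IRS1 lost its call without 6 of 20 pigs (unadjusted p of 0.0547 to 0.0643) and IGFBP4 without 13 of 20 (0.0512 to 0.103), so neither call is stable to single pigs; IGFBP2 probeset 022442 gained one without any of 4 pigs (0.0176 to 0.0448). Over all probesets 893 passed, 794 to 1019 under the alternatives and 771 to 1099 with a litter or pig left out. Of those 893, 64.3% were lower in low RFI pigs, 55.7% under quantile normalization and 53.8% with each array centred on its median; members gave 1 higher and 0 lower, and 1 higher and 1 lower. The pathway list had 0 calls, 1 with the pair block (SOCS2), 1 with the smooth muscle score as covariate (PIK3CD, 0.22, unadjusted p = 0.0472), and 0 to 2 with a litter or pig left out. For RFI by sex the count was 1, and 3 with the pair as replicate block, where 6.12% of all probesets passed. After adjustment, litter gave 0 calls under all alternatives and without any litter. At an unadjusted litter p under 0.05 there was 1 member, beside 2848 of all 22136 probesets, and 2 of 15 without the filter, beside 3145 of 25092. It was 0 with the smooth muscle score (1556 of 22136 probesets) or without the litter of sow 1406 (2041 of 22136), and 1 otherwise. With the fibroblast and matrix score (1411 of 22136 probesets) that member was IRS2. Of the 6 genes most like IRS1 and IGFBP4, 1 remained within litters. Signal near the floor limits what IRS1, IGF1R, IGF1 probeset 047807 and IGFBP2 probeset 022442 can show.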
